A study of Mus musculus with 6 samples.

Results

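ERV1 elements are the class I endogenous retroviruses of the mouse genome. The deposited table names each transposable element entry by subfamily, family and class, and the elements described here are the entries of family ERV1 and class LTR with a mean of 10 or more counts over the 6 libraries. Of 149 ERV1 entries, 82 met this rule, out of 1146 transposable element entries and 25567 entries in all. They were split by name into 17 internal entries (names ending in -int), which cover the body of an element, and 65 LTR entries, which cover its long terminal repeats. Just inside the minimum lay RLTR41B and MER92B, with means of 10.2 and 11.5 counts, and just outside lay RLTR41C and LTR78B, with 9.50 and 8.83.

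The libraries came from mouse induced pluripotent stem cells (iPSCs), cells reprogrammed to a state like that of the early embryo. In 3 libraries both alleles of the serum response factor gene were deleted (SRFΔ/Δ, here SRF KO), and in the other 3 the cells carried the intact conditional allele (SRFf/f, here WT). Both were grown in medium with serum. The labels do not say whether the 3 libraries of a group stand for different clones or for dishes of 1 clone, so the p-values measure only the spread between these libraries, and they name no batch.

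Class I elements are related to the gammaretroviruses, of which murine leukaemia virus is the best known. A complete copy has an internal part, with the genes gag, pol and often env, between a pair of long terminal repeats that hold the promoter and the polyadenylation signal. Many copies have lost the internal part by recombination and remain as solitary LTRs. In pluripotent cells most such elements are silenced by zinc finger proteins that recruit TRIM28 and the histone methyltransferase SETDB1, and by DNA methylation. An entry pools the reads of all copies of a subfamily, so no genome position belongs to a value.

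Total counts were between 26321602 and 36680156 per library, and levels are given as TMM-scaled CPM (CPM of a library size scaled by the trimmed mean of M values). They are not corrected for the length or the number of copies of an entry, so an entry is compared between libraries and not with other entries. Srf, the deleted gene, lay at 3.97 ± 0.707 CPM in SRF KO cells and 34.5 ± 4.14 CPM in WT cells (mean ± SD, n = 3), with a log2 fold change of -3.12. All 12 pluripotent markers on the list used were above 0. Their summed level was between 6251 and 6450 CPM in SRF KO cells and between 7635 and 8039 CPM in WT cells.

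ERV1 RNA took up a larger share of the libraries in SRF KO cells. The summed level of the 17 internal entries was 5191, 5322 and 5131 CPM in SRF KO replicates 1 to 3 and 3679, 3821 and 3635 CPM in WT replicates 1 to 3. All 3 SRF KO libraries lay above all 3 WT libraries, and the means differed 1.40-fold. The 65 LTR entries summed to 721 ± 11.1 CPM in SRF KO cells and 557 ± 10.1 CPM in WT cells (mean ± SD, n = 3), a 1.29-fold difference, again without overlap. As a share of all transposable element counts, the 82 ERV1 entries held 11.5% ± 0.321 in SRF KO cells and 8.11% ± 0.261 in WT cells (mean ± SD, n = 3). All other transposable element entries together lay at 45594 ± 2210.3 CPM in SRF KO cells and 48451 ± 2775 CPM in WT cells (mean ± SD, n = 3), a difference of about 1 SD in the other direction. Among them, entries of the retroviral family ERVK summed to 9793 ± 618 CPM in SRF KO cells and 11204 ± 510 CPM in WT cells (mean ± SD, n = 3), without overlap. Those of the family ERVL summed to 743 ± 34.8 and 697 ± 34.0 CPM, with overlap. As a share of transposable element counts, ERVL entries were higher without overlap, at 1.44% ± 0.0190 in SRF KO cells and 1.32% ± 0.0178 in WT cells. In bulk libraries more cells that transcribe an element and more of its RNA per cell cannot be told apart.

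The sums rested on a few entries. MMERGLN-int and RLTR1B-int together held between 82.0% and 83.8% of the internal counts in every library. The share of MMERGLN-int was between 50.7% and 50.8% in SRF KO cells and between 59.0% and 59.6% in WT cells, while that of RLTR1B-int was between 31.3% and 32.6% in SRF KO cells and between 23.7% and 24.5% in WT cells. The composition of internal ERV1 counts therefore differed between the groups as well as their sum. Without these 2 entries the other 15 internal entries summed to 904 ± 20.1 CPM in SRF KO cells and 616 ± 11.9 CPM in WT cells (mean ± SD, n = 3), a 1.47-fold difference. Among the LTR entries LTRIS2 held between 24.9% and 27.8% of the counts in SRF KO cells and between 15.02% and 17.4% in WT cells. Without it the LTR sum differed 1.14-fold.

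Next, each entry was tested in a fit of the whole table with the quasi-likelihood test of edgeR, with p-values adjusted by Benjamini-Hochberg over all 15611 entries tested and a threshold of 0.05. Of the 82 entries, 81 passed the filter on low counts, all but RLTR41B. In SRF KO cells 22 of the 81 (27.2%) passed, against 41.1% of all entries tested and 16.9% of the 833 transposable element entries tested. Of the 22, 16 were higher and 6 lower, or 19.8% and 7.41% of the 81. Over all entries tested 20.4% were higher and 20.7% lower, and over transposable elements 5.88% were higher and 11.0% lower. The share of ERV1 entries called higher was close to that of all entries and above that of transposable elements. Among the ERVK entries, another family of endogenous retroviruses, 8.94% were higher and 12.6% lower, and among the ERVL entries 4.17% and 6.94%. The differences between families were not tested.

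By kind, 6 of the 17 internal entries were higher and 2 lower, and 10 of the 64 LTR entries tested were higher and 4 lower. Over the entries tested, the median log2 fold change (SRF KO over WT) was 0.16 for internal entries and 0.01 for LTR entries, against -0.02 for all entries and -0.08 for all transposable element entries. The internal median rested on single libraries: it was 0.05 without SRF KO replicate 3, 0.08 without WT replicate 1 and 0.02 without WT replicate 3. In 19 entries all SRF KO libraries lay above all WT libraries and in 13 below. Over all transposable elements tested these shares were 9.00% and 20.2%, and over all entries 25.3% and 26.1%.

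**Figure D1:**
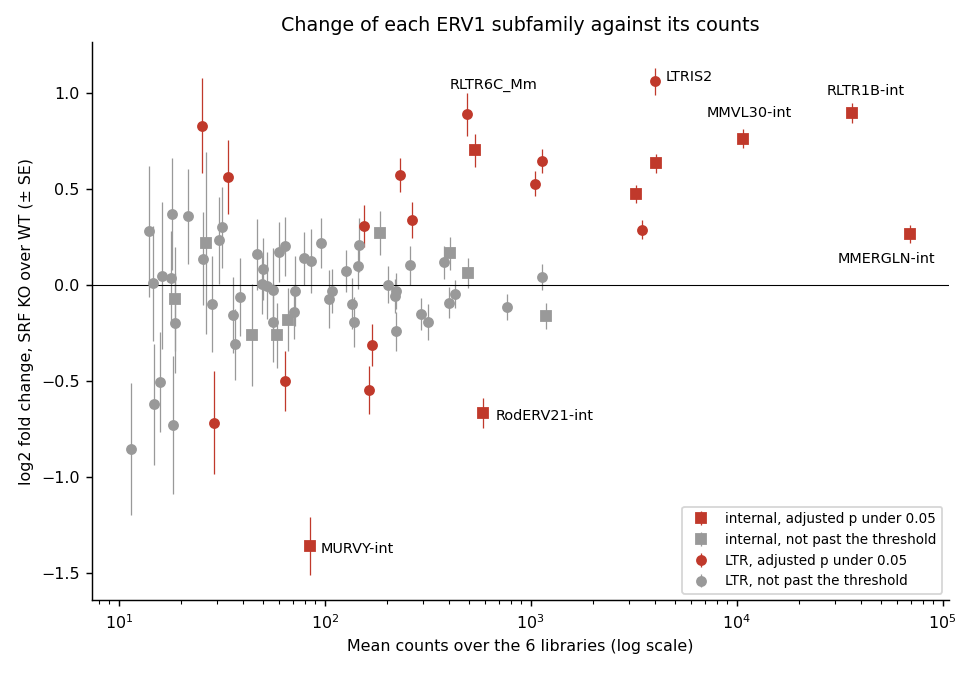
Log2 fold change of SRF KO over WT with its SE (vertical axis) against the mean counts of the 6 libraries (horizontal axis, log scale) for the 81 ERV1 entries tested. Red marks entries past the adjusted p of 0.05, grey the others, squares internal and circles LTR entries. Of the 11 entries with a mean of 1000 counts or more, several of them parts of the same element, 9 were higher and none lower. The SE grows toward the left.

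Calls were more frequent among the deeper entries. Of the 11 entries with a mean of 1000 or more counts, 9 were higher and none was lower by edgeR, with 10 at an unadjusted p under 0.05. The tenth was RLTR14-int, with all SRF KO libraries below all WT libraries and a log2 fold change of -0.16. DESeq2 called none of the 11 lower, and a fit with the replicate number as a block called RLTR14-int lower. Over the 11 entries the median log2 fold change was 0.53. The share called over all entries of this depth was not computed, and the shares given above cover all depths. The 9 were also not separate elements. They held body and terminal repeat of GLN (MMERGLN-int, MMERGLN_LTR), of murine leukaemia virus (RLTR4_MM-int, RLTR4_Mm) and of VL30 (MMVL30-int, RLTR6_Mm). Of 35 LTR entries tested with a mean under 100 counts, 2 were higher and 2 lower, and the median SE of the log2 fold change there was 0.21 against 0.09 for the 29 LTR entries with 100 or more. A change of the size seen in the abundant entries could therefore go undetected in the rare ones. Names of the form LTR or MER with a number, which repeat annotation uses across mammals, belonged to 24 entries, of which 1 was higher and 2 were lower. Of the other 57 entries tested 15 were higher and 4 lower. The first set also had the larger median SE, 0.23 against 0.11, and the part of depth in this contrast was not tested.

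**Figure D2:**
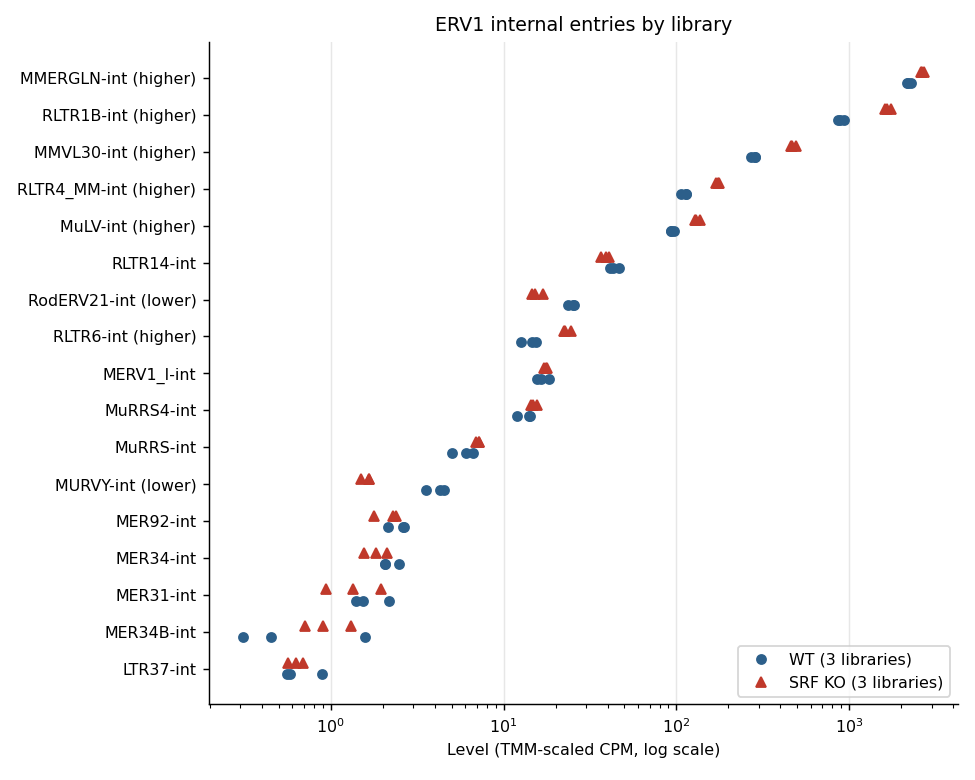
TMM-scaled CPM (horizontal axis, log scale) of the 17 internal ERV1 entries in each library, with circles for the 3 WT and triangles for the 3 SRF KO libraries. Entries are ordered by mean counts, and the call of edgeR is given beside the name. The 5 most abundant entries were higher in SRF KO cells, and MURVY-int and RodERV21-int were lower.

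The entry with the most counts, MMERGLN-int, is the body of the GLN elements, named for the glutamine tRNA that primes their reverse transcription. It lay at 2638, 2702 and 2600.0 CPM in SRF KO replicates 1 to 3 and at 2193, 2265 and 2146 CPM in WT replicates 1 to 3. The groups did not overlap, but the difference was the smallest among the 6 internal entries called higher, with a log2 fold change of 0.27 (SE 0.05, adjusted p 0.00102 by edgeR). Its terminal repeat MMERGLN_LTR moved by nearly the same amount, from 109 ± 4.04 CPM in WT cells to 133 ± 5.33 CPM in SRF KO cells (mean ± SD, n = 3), with a log2 fold change of 0.29 (SE 0.05, adjusted p 0.000923 by edgeR).

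RLTR1B-int rose the most of the internal entries. It lay at 1652, 1735 and 1606 CPM in SRF KO cells and at 884, 938 and 863 CPM in WT cells, with no overlap. The log2 fold change was 0.90 (SE 0.05, adjusted p 1.9e-07 by edgeR), or 1.86-fold. The LTR entry of the same name, RLTR1B, had far fewer counts, between 211 and 308 per library. It rose from 8.19 ± 0.117 CPM in WT cells to 10.3 ± 1.03 CPM in SRF KO cells (mean ± SD, n = 3), with a log2 fold change of 0.34 (SE 0.09, adjusted p 0.0131 by edgeR). This call ended without SRF KO replicate 1 (adjusted p 0.082) and without WT replicate 1 (0.051). RLTR1C, RLTR1D, RLTR1D2_MM and RLTR1A2_MM, LTR entries with related names that were chosen after their values were seen, had log2 fold changes between -0.10 and 0.22 and did not pass.

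VL30 elements carry no intact viral genes, are transcribed in many mouse cells, and are known for their induction by growth factors in fibroblasts. Their body MMVL30-int lay at 464, 462 and 495 CPM in SRF KO cells and at 269, 285 and 284 CPM in WT cells. All SRF KO libraries were above all WT libraries, with a log2 fold change of 0.76 (SE 0.05, adjusted p 4.9e-07 by edgeR), or 1.70-fold. RLTR6-int, a second body entry of this group by its name, rose from 14.2 ± 1.46 to 23.1 ± 1.11 CPM (mean ± SD, n = 3), with a log2 fold change of 0.70 (SE 0.09). Of the 3 LTR entries of the group, 2 passed. RLTR6_Mm rose from 30.1 ± 2.21 to 43.4 ± 1.25 CPM (log2 fold change 0.53, adjusted p 7.2e-05 by edgeR), and RLTR6C_Mm from 12.1 ± 0.135 to 22.4 ± 3.89 CPM (0.89, 7.2e-05; mean ± SD, n = 3). RLTR6B_Mm was at 7.02 ± 0.458 CPM in SRF KO cells and 7.01 ± 0.418 CPM in WT cells (mean ± SD, n = 3), and its log2 fold change of 0.00 (SE 0.10) did not pass.

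Entries of murine leukaemia virus also rose together. RLTR4_MM-int lay at 177, 168 and 173 CPM in SRF KO cells and at 113, 106 and 114 CPM in WT cells, a log2 fold change of 0.63 (SE 0.05, adjusted p 1.8e-06 by edgeR). Its terminal repeat RLTR4_Mm lay at 50.2, 44.6 and 49.9 CPM in SRF KO cells and at 30.8, 30.8 and 31.0 CPM in WT cells, a log2 fold change of 0.64 (SE 0.06). MuLV-int, put beside these by its name, lay at 136, 128 and 130 CPM in SRF KO cells and at 93.5, 92.8 and 97.3 CPM in WT cells, a log2 fold change of 0.47 (SE 0.05). None of the 3 overlapped between the groups. Bodies of these related viruses are alike in sequence, so that a read may fit several entries, and the counting rule for such reads is not given in the sources used here.

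Of the genes that encode cell surface receptors of gammaretroviruses, 2 of 4 were higher and none lower, where 21.2% of the gene entries tested were higher and 21.3% lower. By edgeR 2 of the 4 also had an unadjusted p under 0.05, and DESeq2 called none lower, while the fit with a replicate block called 1 lower. Slc7a1, the cationic amino acid transporter that ecotropic viruses enter by, rose from 123 ± 4.22 to 247 ± 5.40 CPM (mean ± SD, n = 3), an increase of 1.0 on the log2 scale (SE 0.05, adjusted p 3.4e-08 by edgeR). Slc20a2, a phosphate transporter and the amphotropic receptor, rose by 0.33 on the log2 scale (SE 0.06, adjusted p 0.000823 by edgeR). Xpr1, a phosphate exporter that serves polytropic viruses, had a log2 fold change of -0.14 and an adjusted p of 0.106, and Slc20a1 0.04 and 0.542.

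**Figure D3:**
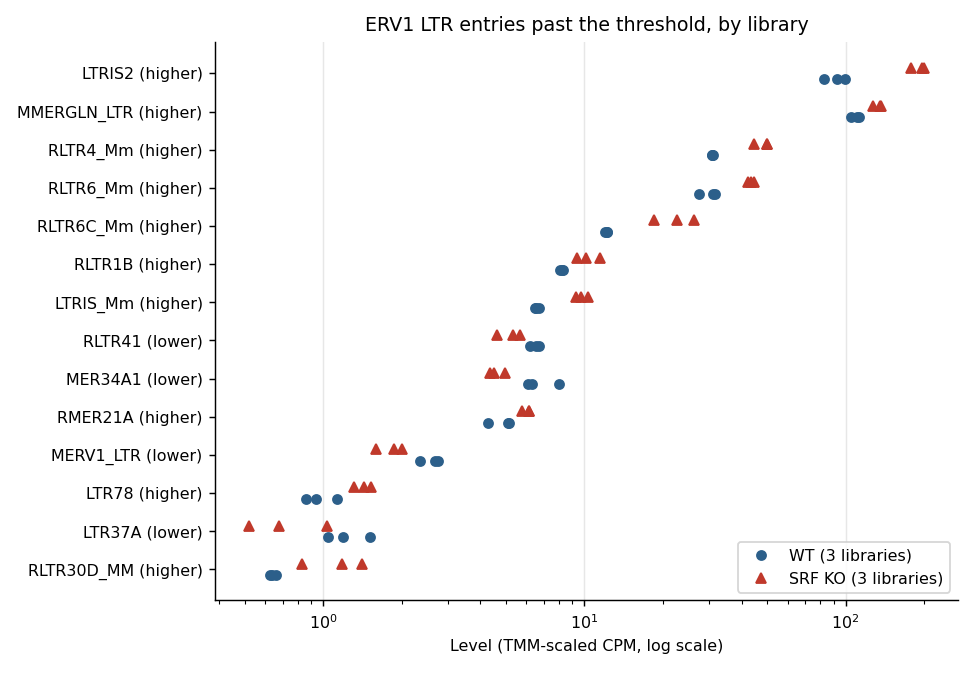
TMM-scaled CPM (horizontal axis, log scale) of the 14 ERV1 LTR entries past the threshold, in each of the 3 WT (circles) and 3 SRF KO (triangles) libraries, ordered by mean counts. LTRIS2 at the top has the widest gap among the abundant entries, and the calls at the bottom rest on about 1 CPM.

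Among the terminal repeats LTRIS2 stood at the top in counts and in change. It belongs to the LTR-IS repeats, which are found alone and at the ends of MuRRS, the murine retrovirus-related sequences. LTRIS2 lay at 196.5, 199.96 and 177.4 CPM in SRF KO cells and at 99.2, 82.4 and 93.2 CPM in WT cells, with no overlap. Its log2 fold change was 1.06 (SE 0.07, adjusted p 5.2e-07 by edgeR), or 2.09-fold. LTRIS_Mm rose from 6.56 ± 0.108 to 9.76 ± 0.530 CPM (mean ± SD, n = 3), with a log2 fold change of 0.57 (SE 0.09). The other 5 LTR-IS entries, LTRIS_Mus, LTRIS3, LTRIS4, LTRIS4A and LTRIS5, did not pass, with log2 fold changes between -0.24 and 0.30. The 2 bodies linked to these repeats did not pass either. MuRRS-int had a log2 fold change of 0.27 (SE 0.11, adjusted p 0.0813 by edgeR) and MuRRS4-int 0.16 (SE 0.09, 0.15), although in both all SRF KO libraries lay above all WT libraries. MuRRS-int passed without WT replicate 2 and without WT replicate 3, and MuRRS4-int without WT replicate 2 (adjusted p 0.0463, 0.032 and 0.035).

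The remaining LTR calls were of low entries. MER34A1 fell from 6.78 ± 1.03 to 4.61 ± 0.331 CPM (mean ± SD, n = 3), with a log2 fold change of -0.55 (SE 0.13, adjusted p 0.00474 by edgeR), and kept its call in all 12 alternative fits. RLTR30D_MM (0.83), LTR78 (0.56) and RMER21A (0.31) were higher and LTR37A (-0.72), MERV1_LTR (-0.50) and RLTR41 (-0.31) were lower as log2 fold changes, with adjusted p between 0.0178 and 0.0485. Each of these 6 lost its call under DESeq2 and in at least 4 of the other fits, while the sign stayed in all. LTR entries called lower accordingly ranged from 4 here to 1 under DESeq2, and the higher to lower split was 10 to 2 with total counts in place of TMM and 8 to 1 in a fit of transposable elements alone. LTR entries called higher were 6 without SRF KO replicate 1 or WT replicate 1, and those called lower were 2 without any 1 of the SRF KO replicates.

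Of the internal entries, MURVY-int and RodERV21-int were lower. MURVY elements are retrovirus-like sequences known for their many copies on the mouse Y chromosome. MURVY-int had 40, 44 and 48 counts in SRF KO cells and 155, 117 and 102 counts in WT cells, or 1.60 ± 0.101 and 4.13 ± 0.513 CPM (mean ± SD, n = 3). Its log2 fold change of -1.36 (SE 0.15, adjusted p 2.6e-05 by edgeR) was the largest of all 81 entries in size. The LTR entry MURVY-LTR did not pass, with 3.73 ± 0.0992 CPM in SRF KO cells and 3.82 ± 0.174 CPM in WT cells (mean ± SD, n = 3) and a log2 fold change of -0.03 (adjusted p 0.86 by edgeR), whose sign turned to 0.01 with total counts in place of TMM and to 0.05 in a fit of transposable elements alone. RodERV21-int lay at 16.9, 15.3 and 14.6 CPM in SRF KO cells and at 25.3, 23.5 and 25.5 CPM in WT cells, a log2 fold change of -0.67 (SE 0.08, adjusted p 3.7e-05 by edgeR). Both entries kept their call in all 12 alternative fits.

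Y chromosome genes were read beside MURVY-int. Of 11 listed, 5 passed the filter on low counts, and 3 of these were higher and none lower by edgeR, where 21.2% and 21.3% of gene entries were, with 3 at an unadjusted p under 0.05. Eif2s3y, a translation initiation factor subunit, rose from 1.15 ± 0.154 to 2.63 ± 0.278 CPM, and Kdm5d, a histone demethylase, from 0.576 ± 0.210 to 1.17 ± 0.222 CPM (mean ± SD, n = 3). The log2 fold changes were 1.18 and 1.07. Uba1y, a ubiquitin-activating enzyme, had 0.97. The call of Kdm5d ended without SRF KO replicate 1 or WT replicate 1, as did that of Uba1y, which also ended under DESeq2. Ddx3y and Uty, chosen after their values were seen, lay at 6.46 ± 0.552 and 7.24 ± 0.357 CPM in SRF KO cells and at 6.03 ± 0.412 and 6.47 ± 0.916 CPM in WT cells (mean ± SD, n = 3) and did not pass. None of the 5 Y chromosome genes tested was called lower, but their group means were at most 7.24 CPM. Of the 11 listed, 4 were at 0 in every library. The part of the Y chromosome in the fall of MURVY-int was not tested. DESeq2 called no Y chromosome gene lower either.

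The other 9 internal entries did not pass the threshold. RLTR14-int was at 38.7 ± 1.99 CPM in SRF KO cells and 43.4 ± 2.69 CPM in WT cells (mean ± SD, n = 3), with a log2 fold change of -0.16 with an edgeR adjusted p of 0.0677, and MERV1_I-int at 17.6 ± 0.362 and 16.8 ± 1.34 CPM. Both MuRRS bodies are given above. MER92-int, MER34-int, MER31-int, MER34B-int and LTR37-int had between 8 and 78 counts per library and log2 fold changes between -0.26 and 0.22, with SE between 0.16 and 0.47. MER34B-int had 57 counts in WT replicate 1 and 8 and 13 in the other WT libraries. Without WT replicate 1 its log2 fold change went from 0.22 to 1.34 with an adjusted p of 0.0172.

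**Figure D4:**
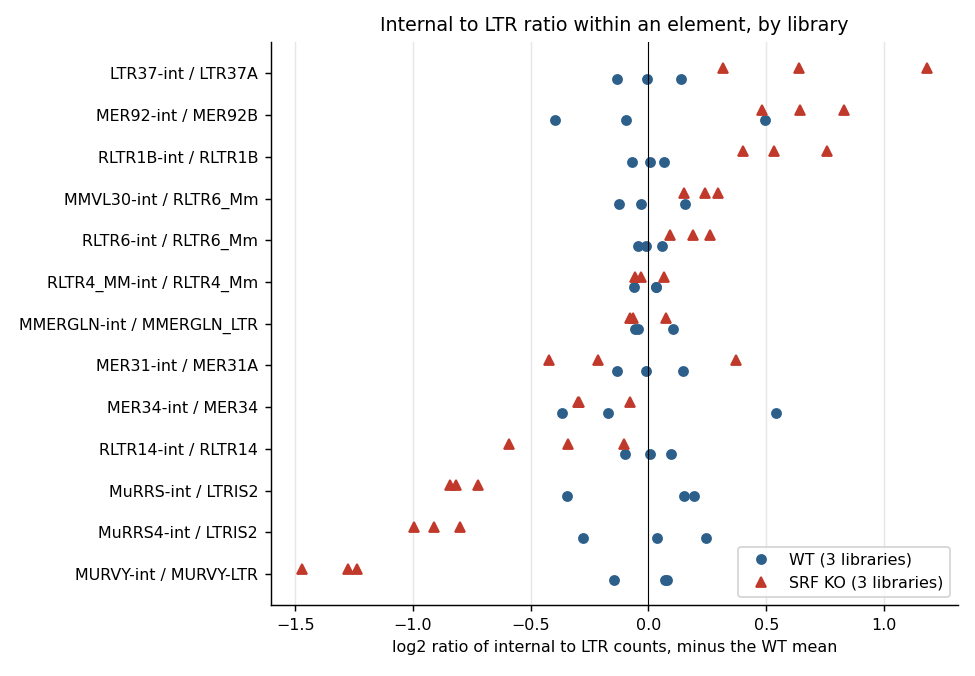
Log2 ratio of internal to LTR counts within an element, minus the mean of the WT libraries (horizontal axis), for 13 pairs of entries, with circles for the 3 WT and triangles for the 3 SRF KO libraries. RLTR4 and GLN pairs sit near 0 in both groups, and the MURVY and MuRRS pairs lie to the left in SRF KO cells.

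A ratio of 2 entries within a library does not depend on its scaling. Internal counts were therefore divided by those of an LTR entry of the same element, for the 13 internal entries that a rule on names gave a partner. The rule gave none to MERV1_I-int, although MERV1_LTR is named alike. These 2 entries, put together after their values were seen, had log2 fold changes of 0.06 and -0.50. Their ratio would thus be higher in SRF KO cells. An LTR entry with exactly the name of the internal entry without -int was used alone. Where instead several LTR entries were linked by name, the one with the most counts was used. MER34-int was thus paired with MER34, with a log2 difference of -0.22, although MER34A1 had more counts (means of 38.7 and 164). MER34-int and MER34A1 had log2 fold changes of -0.26 and -0.55. With MER34A1, chosen here after its values were seen, the ratio would be higher in SRF KO cells. For murine leukaemia virus the ratio of RLTR4_MM-int to RLTR4_Mm was between 3.45 and 3.77 in all libraries, and for GLN that of MMERGLN-int to MMERGLN_LTR between 19.11 and 21.65. The groups overlapped in both, with log2 differences of -0.01 and -0.02. In these elements the difference in ratio was smaller than the spread between libraries. For RLTR1B the ratio was 144, 184 and 158 in SRF KO cells and 110, 114 and 104 in WT cells, a log2 difference of 0.56. For MURVY it was 0.388, 0.444 and 0.457 in SRF KO cells and 1.13, 1.14 and 0.971 in WT cells, a log2 difference of -1.33. For MuRRS-int over LTRIS2 the log2 difference was -0.80 and for MuRRS4-int over LTRIS2 -0.90. LTRIS2 itself had a log2 fold change of 1.06. Over the 7 LTR-IS entries summed, the differences were -0.63 and -0.74. LTRIS4A, chosen here after its values were seen, had a log2 fold change of -0.24 and MuRRS4-int 0.16. With LTRIS4A as its partner, the ratio of MuRRS4-int would thus be higher in SRF KO cells. RLTR14-int over RLTR14 was lower, with a log2 difference of -0.35, and LTR37-int over LTR37A higher, at 0.71, without overlap in either. For RLTR14 the gap was narrow, with 8.50 in SRF KO replicate 1 and 8.53 in WT replicate 3. LTR37-int and LTR37A had only between 14 and 43 counts per library. Against the summed LTR37 entries the groups overlapped, at 0.48. RLTR6-int over RLTR6_Mm did not overlap, at 0.18. MMVL30-int over RLTR6_Mm overlapped between the groups, at 0.23, but over the 3 VL30 LTR entries summed it was 6.41, 6.61 and 6.49 in SRF KO cells and 5.30, 6.08 and 5.69 in WT cells, without overlap and with a log2 difference of 0.19. Under an exact permutation test (two-sided, 20 assignments of the libraries), 7 of the 13 ratios reached 0.1, the smallest p that 3 against 3 libraries allow, and 0.186 after Benjamini-Hochberg adjustment over the 13, so that this test could not pass 0.05. The 13 were not independent, since MuRRS-int and MuRRS4-int shared LTRIS2, and MMVL30-int and RLTR6-int shared RLTR6_Mm. In level, 25.3% of all entries tested lay above and 26.1% below without overlap, and no such share was computed for ratios.

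Factors that silence or restrict endogenous retroviruses were compared in the same fit. Of 47 names listed, 45 were in the table and tested, and 3 were higher and 14 lower, where 21.2% and 21.3% of gene entries were. Their median log2 fold change was -0.10, against -0.02 for all entries. Dnmt3a, a de novo DNA methyltransferase, rose from 243 ± 0.942 to 447 ± 1.46 CPM, and Zfp819, a zinc finger protein, from 19.7 ± 1.59 to 34.3 ± 0.844 CPM (mean ± SD, n = 3), log2 fold changes of 0.88 and 0.80. Apobec3, a cytidine deaminase that restricts retroviruses, fell from 171 ± 3.30 to 105 ± 0.390 CPM and Dnmt3l, a cofactor of de novo methylation, from 287 ± 4.65 to 199 ± 3.89 CPM (mean ± SD, n = 3), log2 fold changes of -0.71 and -0.52 (adjusted p 3.7e-07 and 4.0e-06 by edgeR).

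Further silencers are named here after their values were seen. Dnmt1, the maintenance DNA methyltransferase, and Uhrf1, which brings it to replicated DNA, fell by 0.24 and 0.21 on the log2 scale. Chaf1b, a subunit of the histone chaperone CAF-1, had a log2 fold change of -0.36, Kdm1a, a histone demethylase, -0.31, Atrx, a chromatin remodeller, -0.31, and Cbx1, a heterochromatin protein, -0.26. All 6 were among the 14 called lower. Others of the 14 were Gm15446, with a larger fall of -0.46 from 3.34 to 2.42 CPM (adjusted p 0.0158 by edgeR), and Mov10, at -0.27 (0.00395). Besides Dnmt3a and Zfp819, Suv39h1 was called higher, with a log2 fold change of 0.19 (adjusted p 0.0325 by edgeR). Trim28, Setdb1 and Zfp809, the zinc finger protein that directs TRIM28 to the primer binding site of murine leukaemia virus, differed less. Trim28 was at 1399 ± 56.1 CPM in SRF KO cells and 1380.3 ± 113.9 CPM in WT cells (mean ± SD, n = 3), and Zfp809 at 24.7 ± 1.06 and 21.9 ± 2.63 CPM. Neither passed, with log2 fold changes of 0.02 and 0.18 (adjusted p 0.842 and 0.122 by edgeR). Setdb1 fell from 147 ± 2.43 to 135 ± 0.528 CPM (mean ± SD, n = 3), with a log2 fold change of -0.12 at an edgeR adjusted p of 0.0497, just inside the threshold. The number of silencer genes called lower was 8 when SRF KO replicate 1 was left out and 9 when replicate 3 was. The number called higher was 8 without WT replicate 2, and the split was 6 higher to 11 lower with total counts in place of TMM.

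Markers of cell types were compared in the same fit, where 21.2% of gene entries were higher and 21.3% lower. Of the 12 pluripotent markers 1 was higher and 6 were lower. Nanog fell from 444 ± 3.01 to 256 ± 2.03 CPM (mean ± SD, n = 3), and Tfcp2l1, Klf4 and Esrrb had log2 fold changes of -0.70, -0.52 and -0.49. All 4 encode transcription factors of the pluripotent state. The marker called higher was Zfp42, with a log2 fold change of 0.17 (adjusted p 0.0312 by edgeR). Pou5f1 and Sox2 did not pass, with log2 fold changes of -0.08 and -0.19 (adjusted p 0.258 and 0.0506 by edgeR). Zfp42, Pou5f1 and Sox2 were chosen after their values were seen.

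Markers of other cells moved in the same direction as the abundant ERV1 entries. All 18 fibroblast markers, of a cell type used as feeders and also the source of many iPSC lines, were higher in SRF KO cells at a median log2 fold change of 1.09, and none was at 0 in WT cells. Their summed level was between 1738 and 2111 CPM in SRF KO cells and between 850 and 986 CPM in WT cells. Prrx1, a mesenchymal transcription factor, and Fbn1, Col5a2 and Col3a1, of the extracellular matrix, had log2 fold changes of 1.13, 1.38, 1.22 and 1.09. Of 17 extraembryonic endoderm markers, 16 passed the filter and all 16 were higher, with a median of 3.67 and summed levels between 3988 and 4256 CPM in SRF KO cells and between 622 and 655 CPM in WT cells. Cubn and Lrp2, endocytic receptors, Dab2, their adaptor, and Col4a1, a basement membrane collagen, had log2 fold changes of 5.88, 3.89, 3.68 and 3.36. Ttr, an endoderm carrier protein chosen after its values were seen, was at 0 counts in all WT libraries. All 6 tested of the 9 genes found on the 2-cell-like list were higher, with summed levels between 18.7 and 21.3 CPM in SRF KO cells and between 6.27 and 9.41 CPM in WT cells. Usp17le, Zscan4f, Zscan4b and Zscan4c had log2 fold changes of 1.57, 1.37, 1.60 and 1.73, and reads may be split among the near-identical Zscan4 copies. The part of these cell types in the ERV1 differences was not tested.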

How the data were processed

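Bulk RNA of 6 mouse iPSC libraries was sequenced as 150 bp read pairs, and the authors removed adaptor, low-quality and empty reads, per the labels' protocols. The deposited values are whole-number counts per gene and per transposable element subfamily, 1 column per library, with no normalization judging from the values. The submitters' processing notes name the build mm10 and DESeq2. The aligner, the counting program, the annotation, the use of strand and the treatment of reads that fit several copies are not given in the sources used here.

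Columns were matched to samples by title. Genes and elements went into 1 fit (R 4.3.3, edgeR 4.0.16), with filterByExpr at its minimum count of 10, TMM scaling, the quasi-likelihood test without a replicate term, and Benjamini-Hochberg adjustment over all entries tested. The fit was tested on simulated data. Levels are counts divided by the TMM-scaled library size. Alternatives were DESeq2 1.42.0, 3 other scalings, no filter, stricter thresholds, a replicate block and leaving out each library. Replicate pairs differed by more than sampling noise (chi-square per degree of freedom between 1.83 and 15.5). Pairs that held replicate 2 differed the most in both groups, at 12.9 and 15.5 in WT and 4.15 and 5.13 in SRF KO. The pairs of replicates 1 and 3 gave 3.8 in WT and 1.83 in SRF KO.

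The members and the lists of genes, element pairs and markers were chosen with earlier results of these data known. Named are Srf, every internal entry, LTR entries past the threshold, the 8 LTR entries with the highest level, the LTR entries paired with an internal one, and from each gene list the 4 or fewer lowest p-values past the threshold. The lists cover retroelement silencers, gammaretrovirus receptors, Y chromosome genes, and pluripotent, fibroblast, extraembryonic endoderm and 2-cell-like markers. The split by spelling of names was made after the names were seen. No consensus sequence of a subfamily was used here, so none is printed. The labels name no molecular identifiers, so reads need not stand for separate molecules.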

Additional observations from a re-analysis of the deposited data

How the results depend on the processing

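Of the 22 entries called, 15 kept the call in all 12 alternative fits and all 22 kept their sign. The 7 that lost it in 1 or more had at most 265 counts on average.

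Where calls also needed a log2 change of 1 or more in size, internal entries called went to 0 higher and 1 lower, LTR entries to 1 higher and 0 lower, silencer genes to 0 higher and 0 lower, and receptor genes to 0 higher. At an adjusted p under 0.01 LTR entries were 6 higher and 1 lower, silencer genes 8 lower and Y chromosome genes 1 higher. Such thresholds lower counts by construction. DESeq2 and the fit of transposable elements alone each gave 1 LTR entry lower, and total counts without TMM gave 2 LTR entries lower and 6 silencer genes higher. The cause was not tested.

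The internal median was 0.24 and the LTR median 0.0849 with transposable elements alone, and the LTR median 0.0423 with total counts. The log2 ratio of the internal sum was 0.53 with total counts, and that of the LTR sum 0.41 with total counts and 0.40 as a share of transposable element counts.

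Over the 6 fits that each left out one library, LTR entries called higher ranged from 6 (without either replicate 1) to 9 and lower from 2 to 4, silencer genes higher from 2 to 8 and lower from 8 to 17, Y chromosome genes higher from 1 to 4, internal entries higher from 6 to 8, the internal median from 0.0160 to 0.19 and the LTR median from -0.0376 (without WT replicate 3, reversed) to 0.0540.

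Deviations from the group means correlated at 0.041, 0.353 and 0.213 between libraries of the same number, over 12920 entries. The value for the replicates 2 was the highest of all pairs, while SRF KO replicate 1 correlated best with WT replicate 3, at 0.255. Whether libraries of the same number were handled together is not given in the labels and was not tested. With a replicate block, silencer genes were 7 higher and 20 lower, receptor genes 1 lower, and internal entries 3 lower, RLTR14-int passing at -0.16.

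Some values near 0 changed sign and were not called where they did. With one library left out, log2 fold changes ran from lowest to highest as follows in parentheses, for LTR37-int (-0.185 to 0.151), MER34B-int (-0.115 to 1.34), RMER5 (-0.0103 to 0.103), MER34 (-0.216 to 0.0629), RLTR6B_Mm (-0.0529 to 0.0451), and MURVY-LTR (-0.0591 to 0.00592). MER34B-int passed at the upper end, without WT replicate 1. The log2 difference of the ratio of internal to LTR counts did likewise, for MER31-int (-0.319 to 0.078), MER34-int (-0.408 to 0.0456), MMERGLN-int (-0.0717 to 0.0284), and RLTR4_MM-int (-0.0433 to 0.0175). In the fit of transposable elements alone LTR37-int was at 0.00668, RMER2 at 0.0333, MER34 at 0.0198 and MURVY-LTR at 0.0491, and with total counts MURVY-LTR at 0.00657.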

Other observations

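The 67 ERV1 entries under the minimum, 13 of them internal, held 0.0992% of all ERV1 counts, and 13 were at 0 in every library. Genes captured from retroviruses, chosen after the table was seen, were rare or did not pass. Syna, the envelope gene of a captured element that fuses placental cells, had 19, 5 and 5 counts in SRF KO cells and 16, 6 and 6 in WT cells, and Synb had at most 1. Fv1, a restriction gene against murine leukaemia virus that derives from an endogenous retroviral gag gene, was at 4.72 ± 0.356 CPM in SRF KO cells and 4.69 ± 0.595 CPM in WT cells (mean ± SD, n = 3), with an edgeR adjusted p of 0.997.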
